A study of Ovis aries with 13 samples.

Results

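The 6 genes described here, all of inflammatory signalling, were measured in the left ventricle of the sheep heart around birth. They were the cytokines TNF and IL18, the inhibitor NFKBIA, the transcription factor CEBPB, the acute-phase protein SAA3 and the mitochondrial enzyme SOD2. They were taken from the array by name, as every probe that is not a control and that the gene name, gene ID or sequence record in the files ties to 1 of these symbols. SAA3 was named by the description of its probe. These 6 genes had 9 probes, of the 1017 genes that could be named on an array of 15008 probes, and all 9 were bright enough to be tested. TNF, SAA3, NFKBIA and CEBPB had 1 probe each, SOD2 had 2 and IL18 had 3, and every probe is reported apart.

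The samples were frozen pieces of left ventricle from sheep (Ovis aries), each with its own 1-colour Agilent array. There were 6 fetuses of gestational day 142, 2 females and 4 males, and 7 lambs of postnatal day 1, 4 females and 3 males. The design text puts the lambs on their birth day. The labels name no treatment, genotype or breed in either group, and 9 of the 13 animals share 4 numbers with another animal of their own group; the sources do not say what that means. The tissue was homogenised whole, so fewer cells of a type and less RNA per cell cannot be told apart in any value below. None of the 14 cardiac muscle genes listed to check the tissue label could be named on the array, so the label was not checked by them.

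NF-kappa-B is a family of transcription factors that inhibitor proteins hold in the cytoplasm. Cytokines such as TNF, or microbial products, lead to destruction of the inhibitor, of which the product of NFKBIA, I-kappa-B-alpha, is the best known, and the freed factor enters the nucleus. It then switches on cytokines, adhesion molecules, SOD2 and NFKBIA itself, which closes a feedback loop. C/EBP-beta, the product of CEBPB, acts with it on acute-phase genes such as the serum amyloid A genes. IL18 is a cytokine of the interleukin-1 family, made as a precursor that caspase-1 cleaves. In the heart these genes are best known from ischaemia, infection and heart failure.

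The probes are 60-base oligonucleotides, and their sequences show what was placed on the array for each value. The 3 IL18 probes are shown because they gave opposite results. Probes 2 and 3 lie on the same RefSeq transcript of IL18, from bases 597 and 557, and share the 20 bases in capitals. Probe 1 comes from an expressed sequence tag, a single partial read of a transcript, that the array's design names IL18, and its first 30 bases are given. Whether probe 1 measures an IL18 transcript was not checked here, so its values are those of a probe named IL18.
IL18 probe 1: ccctgggagtccatttaaaacactgtacaa
IL18 probe 2: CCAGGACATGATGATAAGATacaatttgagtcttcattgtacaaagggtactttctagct
IL18 probe 3: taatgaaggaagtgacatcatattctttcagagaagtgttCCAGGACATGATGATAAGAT

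The probes of SOD2 also lie on 1 record, an expressed sequence tag, and share the 30 bases in capitals. Their values are therefore not independent of each other.
SOD2 probe 1: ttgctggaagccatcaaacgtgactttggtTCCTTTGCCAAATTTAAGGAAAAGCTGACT
SOD2 probe 2: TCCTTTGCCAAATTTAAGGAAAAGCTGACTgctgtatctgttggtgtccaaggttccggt

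The single probes of the other members are shown because each carries its gene's result alone. The TNF probe starts at base 1618 of the RefSeq transcript, and its first 30 bases are given. The NFKBIA probe starts at base 655 of its RefSeq transcript. The CEBPB probe lies on a record that is not a RefSeq transcript. The SAA3 probe was named through its description in the scanner files, which calls its target a precursor of serum amyloid A3.2. Some serum amyloid A genes are close copies of each other, so which of them this signal stands for is uncertain. No other probe on the array shared a run of 25 bases with a member's probe, apart from the SOD2 pair.
TNF: tgcctgtaaccgccctactggtcagtggcg
SAA3: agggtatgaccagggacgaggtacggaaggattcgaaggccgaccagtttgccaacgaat
NFKBIA: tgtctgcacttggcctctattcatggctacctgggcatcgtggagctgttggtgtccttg
CEBPB: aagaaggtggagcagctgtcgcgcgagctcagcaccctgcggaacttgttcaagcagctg

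Values are the log2 of a probe's processed signal minus the 75th percentile of that signal on the same array, so a value of 0 is as bright as that percentile. A change is the newborn mean minus the fetal mean on this scale. It was tested with limma over 10255 probes, with Benjamini-Hochberg adjustment and a threshold of 0.05. On the 13 arrays the percentile lay between 219.1 and 367.3 intensity units, and 9407 to 10713 probes were well above background, the scanner software's mark for a spot brighter than its surroundings. Newborn 6 stood apart from its group, at -8.997 on the first principal component against 10.08 to 35.07 for the other lambs and -29.07 to -20.42 for the fetuses. Slide 1 held 4 fetuses and 3 lambs, and slide 2 held 2 fetuses and 4 lambs. The p-values measure the spread between these animals, and the number of arrays limits the precision.

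The question of the comparison was how these transcripts differ between the ventricle shortly before and shortly after birth. SAA3 was 3.31-fold higher in the newborn lambs, and the 2 IL18 probes on the RefSeq transcript were 3.27-fold and 3.19-fold higher. The log2 changes of these IL18 probes, 1.71 and 1.67, were 0.49 and 0.59 with normexp, another background correction that is described below. TNF was higher too, with a log2 change of 1.75 as reported, and it was well above background on only 2 of 6 fetal arrays. With normexp spot by spot the TNF change was 0.36 (limma adjusted p = 0.9228). It was 0.49 (limma adjusted p = 0.00337) in a version with a median background per array, chosen after the data were seen. NFKBIA was 2.11-fold lower, CEBPB 1.44-fold lower and IL18 probe 1 lower by 1.46-fold. Neither SOD2 probe passed. CEBPB changed by -0.53 as reported and by -0.19 with normexp spot by spot, where 0 of the 9 probes and 48 of all probes passed. As reported, 4 of the 9 probes rose and 3 fell. Of all tested probes 23.1% passed, 1227 (12%) as higher and 1139 (11.1%) as lower in the newborn group. The members were chosen with earlier results of these data known, and IL18 probes 2 and 3 share bases. Their count is therefore no test of the members as a set.

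**Figure D1:**
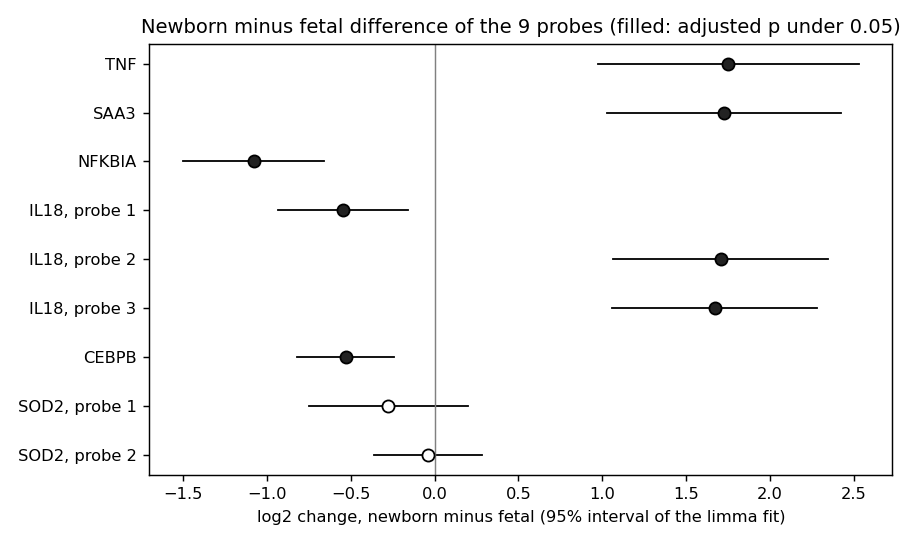
Newborn minus fetal difference of each probe on the log2 scale, as a point with its 95% interval from the limma fit over 6 fetal and 7 newborn arrays. Filled points passed at an adjusted p under 0.05, and only the intervals of the SOD2 probes include 0.

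TNF, the cytokine that is both an inducer and a target of NF-kappa-B, was close to the background. Its log2 value had a lowest, median and highest of -6.07, -5.01 and -4.15 in the fetuses and -4.26, -3.21 and -2.51 in the newborn lambs. The probe was well above background on 2 of 6 fetal and 6 of 7 newborn arrays, so its fetal mean rests largely on spots that were not. The mean processed signal was 10.3 intensity units in the fetuses and 30.6 in the newborn lambs. Of the 7 newborn values 5 were above every fetal value, and newborn 1 and newborn 2 lay within the fetal range. The mean rose from -5.10 ± 0.783 (SD, n = 6) to -3.35 ± 0.706 (SD, n = 7), a log2 change of 1.75 (SE 0.364, limma adjusted p = 0.004589). The change was 1.44 within slide 1 (adjusted p = 0.1262) and 1.94 within slide 2 (adjusted p = 0.1431), where the call was lost, and 1.66 with slide as a block. With normexp background correction, a model of the background spot by spot, it was 0.36 (adjusted p = 0.9228). When that model took a median background per array it was 0.49 (adjusted p = 0.00337). Both versions add an offset of 50 intensity units to every signal, which shrinks log2 changes most where the signal is dim. How much of the smaller change is due to this offset was not tested.

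IL18 was the gene whose probes differed. Probe 2 had a lowest, median and highest log2 value of -4.52, -3.57 and -3.08 in the fetuses and -2.70, -1.99 and -0.84 in the newborn lambs. Every newborn value was above every fetal value, which held for 6.89% of all tested probes in either direction. Newborn 3 was highest and newborn 1 lowest among the lambs, and fetal 1 was the lowest fetal array. The log2 change of probe 2 was 1.71 (SE 0.300, limma adjusted p = 0.002015), and the probe was well above background on 4 of 6 fetal and 7 of 7 newborn arrays.

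Probe 3, whose first 40 bases lie outside probe 2, followed it closely. Its lowest, median and highest log2 values were -4.64, -3.55 and -3.02 in the fetuses and -2.78, -2.08 and -0.94 in the lambs, again without overlap. It changed by 1.67 (SE 0.287, limma adjusted p = 0.001762), and was well above background on 5 of 6 fetal and 7 of 7 newborn arrays. Within single arrays, probe 2 minus probe 3 lay between -0.41 and 0.29. The change was larger on slide 1 than on slide 2, at 2.16 against 1.01 for probe 2 and 2.19 against 0.95 for probe 3, a difference between slides that was not tested. Within slide 2 the calls were lost (adjusted p = 0.1255 and 0.1563). A block for slide gave 1.66 and 1.65. With normexp spot by spot the changes were 0.49 for probe 2 (adjusted p = 0.677) and 0.59 for probe 3 (adjusted p = 0.4874). With the median background they were 0.67 (adjusted p = 0.002618) and 0.76 (adjusted p = 0.000874).

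Probe 1 of IL18 went the other way. Its lowest, median and highest log2 values were -2.12, -1.77 and -1.59 in the fetuses and -3.01, -2.44 and -1.70 in the lambs, and it was well above background on all 13 arrays. Of the 7 newborn values 5 were below every fetal value, while newborn 2 and newborn 6 were not. It fell by 0.55 on the log2 scale (SE 0.181, limma adjusted p = 0.04191). This call was lost in 19 of the 26 other settings, including 8 of the 13 in which 1 array was left out, with adjusted p-values up to 0.08577 there. The 8 arrays were fetal 1, 2, 3 and 4 and newborn 3, 4, 5 and 7. With animal number as a random block the change was -0.57 (adjusted p = 0.06794). With slide as a block the change was -0.48 (adjusted p = 0.07062), and it was -0.59 within slide 1 and -0.35 within slide 2. Newborn 3, the array with the highest newborn values on probes 2 and 3, had the lowest newborn value on probe 1.

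The 3 probes can be set against each other as differences within an array. Probe 2 minus probe 1 lay between -2.76 and -0.96 in the fetuses, with a median of -1.88, and between -0.57 and 2.17 in the lambs, with a median of 0.33. The fetal and newborn differences did not overlap. Probe 3 minus probe 1 lay between -3.05 and -0.91 in the fetuses and between -0.67 and 2.07 in the lambs, also without overlap. These differences were computed after the opposite changes were seen and were given no test.

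**Figure D2:**
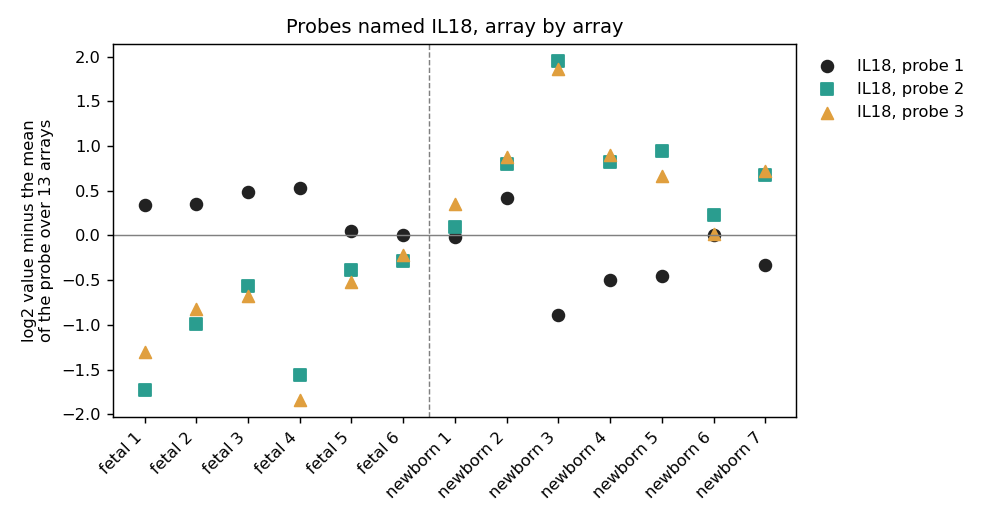
Log2 value of each IL18 probe on each array minus that probe's mean over the 13 arrays, with fetal arrays left of the dashed line and newborn arrays right of it. Probes 2 and 3 lie above their means on all newborn arrays and below them on all fetal arrays, while probe 1 is highest on fetal 4 and lowest on newborn 3.

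NFKBIA, the gene of the inhibitor I-kappa-B-alpha, was lower in every newborn lamb than in any fetus. Its lowest, median and highest log2 values were 1.87, 2.17 and 2.71 in the fetuses and 0.63, 1.12 and 1.79 in the lambs. All 7 newborn values were below all 6 fetal values, and groups lay apart, in either direction, for 6.89% of all tested probes. The nearest values were newborn 7 and newborn 6 on one side and fetal 3 on the other. The mean processed signal was 1454 intensity units in the fetuses and 637.9 in the lambs, and the probe was well above background on all 13 arrays. The mean fell from 2.24 ± 0.329 (SD, n = 6) to 1.17 ± 0.426 (SD, n = 7), a log2 change of -1.08 (SE 0.197, limma adjusted p = 0.002459). The change was -1.32 within slide 1, -0.81 within slide 2, where the call was lost (adjusted p = 0.2148). A block for slide gave -1.09. With normexp spot by spot it was -0.97, and the call was lost (adjusted p = 0.08557). With the median background it was -1.04, and the call was kept (limma adjusted p = 0.0009427).

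SAA3, an acute-phase protein that tissues outside the liver can make, rose. Its lowest, median and highest log2 values were -1.78, -1.43 and 0.48 in the fetuses and -0.19, 0.86 and 1.10 in the lambs. Of the 7 lambs 6 were above every fetus, and the groups overlapped through newborn 5 and fetal 1. Fetal 1 had the highest fetal values of SAA3 and NFKBIA and the lowest of TNF and IL18 probe 2. The mean processed signal of SAA3 rose from 171.9 to 450.2 intensity units, with the probe well above background on all 13 arrays. The mean rose from -1.05 ± 0.850 (SD, n = 6) to 0.67 ± 0.454 (SD, n = 7), a log2 change of 1.73 (SE 0.327, limma adjusted p = 0.002949). It was 1.73 within slide 1 (adjusted p = 0.08619) and 1.74 within slide 2 (adjusted p = 0.1308), where the call was lost, 1.74 with slide as a block, and between 1.58 and 2.03 with 1 array left out. With normexp spot by spot it was 1.20 and the call was lost (adjusted p = 0.06009). With the median background it was 1.37 and the call was kept (limma adjusted p = 0.00191).

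CEBPB fell by less than NFKBIA, the other member with a single probe that fell. The mean processed signal of CEBPB was low, 37.05 intensity units in the fetuses and 23.17 in the lambs. The probe was well above background on all 13 arrays. Its lowest, median and highest log2 values were -3.40, -3.02 and -2.76 in the fetuses and -3.89, -3.68 and -3.24 in the lambs. Of the 7 lambs 5 were below every fetus, and newborn 6 and newborn 7 were not. The mean fell from -3.07 ± 0.238 (SD, n = 6) to -3.60 ± 0.250 (SD, n = 7), a log2 change of -0.53 (SE 0.136, limma adjusted p = 0.01324). Within slides the change was -0.60 on slide 1 (adjusted p = 0.124) and -0.51 on slide 2 (adjusted p = 0.2196), where the call was lost, and with slide as a block -0.56. It was -0.19 with normexp spot by spot (adjusted p = 0.9998) and -0.10 with the median background (adjusted p = 0.3448). Without newborn 2, 4 and 5, the 3 lambs that share 1 animal number, it was -0.39 (adjusted p = 0.1421).

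SOD2, the manganese superoxide dismutase of mitochondria and a classical NF-kappa-B target, gave no call. Probe 1 had a lowest, median and highest log2 value of 2.94, 3.36 and 3.66 in the fetuses and 1.97, 3.35 and 3.54 in the lambs. Probe 2 had 2.62, 3.10 and 3.31 in the fetuses and 2.58, 3.10 and 3.33 in the lambs. The groups overlapped on both probes, and newborn 6 was the lowest array on both. The change was -0.28 on probe 1 (95% interval -0.75 to 0.20, limma adjusted p = 0.3782) and -0.04 on probe 2 (95% interval -0.36 to 0.29, limma adjusted p = 0.8794). Within slides 1 and 2 the change was -0.07 and -0.44 on probe 1, and 0.04 and -0.07 on probe 2, whose sign thus turned. The intervals do not include a change of the size seen for NFKBIA in either direction. They do not show that the level was equal.

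**Figure D3:**
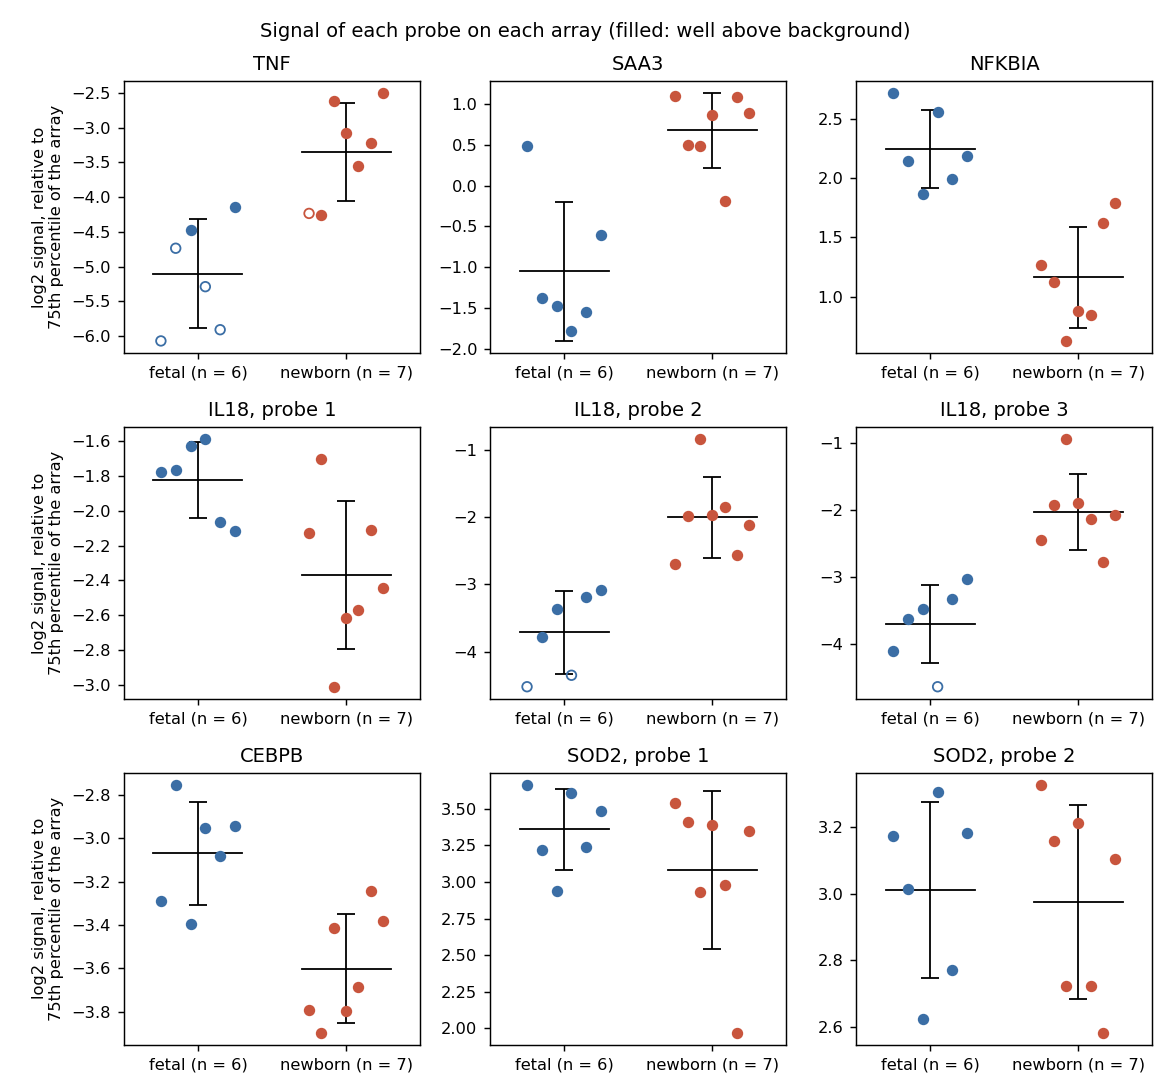
Log2 signal of the 9 probes on each of 6 fetal (blue) and 7 newborn (red) arrays, relative to the array's 75th percentile. Filled points are arrays on which the probe was well above background, lines are group means and bars 1 SD; each panel has its own axis. The groups are apart for NFKBIA and IL18 probes 2 and 3, overlap through single arrays for SAA3, and overlap for SOD2.

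Sex was examined because the labels give it and the groups hold it unequally. With age in the model, none of the 9 probes differed between males and females (lowest adjusted p = 0.9994 in limma, 0 of 9 below 0.05 unadjusted), and 0.00975% of all tested probes did. The age difference was not shown to differ between the sexes for any of the 9 probes either (lowest adjusted p = 0.9786 in limma, 0 of 9 below 0.05 unadjusted), with 0% of all probes called and 507 below 0.05 unadjusted. TNF had the largest such term among the probes, 0.97 (SE 0.725). Its fetal mean was -5.43 in 4 males and -4.44 in 2 females, and its newborn mean was -3.36 in 3 males and -3.34 in 4 females. NFKBIA had fetal means of 2.28 in males and 2.17 in females and newborn means of 1.12 and 1.20.

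Other genes of the same pathways were taken from lists, each gene by its brightest probe, and the lists share genes with each other and with the members. Among the 650 named genes tested this way 23.1% passed, 13.4% as higher and 9.69% as lower, and their median log2 change was 0.09. Of NF-kappa-B proteins and upstream signalling, 5 of 28 genes had a named probe and 3 were tested. TRAF3, an adaptor of TNF and Toll-like receptors, rose by 0.66 (SE 0.227, limma adjusted p = 0.04866), NFKBIA fell, and the kinase IRAK4 differed by -0.19 (adjusted p = 0.5405). IKBKB and MYD88 were too dim to be tested. TRAF3 was well above background on 3 of 6 fetal and 6 of 7 newborn arrays and lost its call in 19 of 24 other settings. None of the NF-kappa-B subunits themselves could be named on the array.

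Of the NF-kappa-B target genes 9 of 30 were tested, and 3 rose, 1 fell and 5 did not pass, with a median log2 change of 0.49. The risers were TNF, IRF1 and IL1B. IRF1, a transcription factor of the interferon response, rose by 0.94 (SE 0.209, limma adjusted p = 0.006742) with 6 of 7 lambs above every fetus. IL1B, the interleukin that signals much as TNF does, rose by 0.49 (SE 0.141, limma adjusted p = 0.02257), with 2 of 6 fetal and 4 of 7 newborn arrays well above background. ICAM1, an adhesion molecule for leukocytes, differed by 0.85 (SE 0.347, adjusted p = 0.08864). CXCL8, NOS2, PLAU and SOD2 did not pass either, and the named probes of CSF2, IL1A, IL6, MMP9, PTGS2, SELE and SELP were too dim to be tested.

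Of the TNF superfamily and its receptors 4 of 14 genes were tested, and 3 rose, the member TNF among them, and 0 fell. CD40, a receptor of antigen-presenting cells, rose by 0.99 (SE 0.196, limma adjusted p = 0.00364), with 7 of 7 lambs above every fetus. Groups lay apart in this way, in either direction, for 6.89% of all tested probes. FAS, the death receptor, rose by 1.43 (SE 0.453, limma adjusted p = 0.03524), and lost its call in 14 of 24 other settings. CD40 was well above background on 5 of 6 fetal and 7 of 7 newborn arrays, and FAS on 2 of 6 and 5 of 7. TNFRSF1A, the main receptor of TNF, differed by -0.07 (SE 0.172, adjusted p = 0.7841). The list's median, with TNF in it, was 1.21.

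Of acute-phase proteins and their regulators 4 of 32 genes were tested. SAA3 rose, CEBPB fell, and the complement protein C3 (-0.41, SE 0.211, adjusted p = 0.1724) and transferrin, TF (0.22, SE 0.170, adjusted p = 0.3651), did not pass. The list's median was -0.10. In the interleukin-1 family 2 of 16 genes were tested, and IL1B rose. IL18 enters the count as lower, because it is represented by probe 1, whose call was lost in 19 of 26 other settings, while probes 2 and 3 rose by 1.71 and 1.67. The partners of CEBPB, ATF4 (0.50, SE 0.330) and DDIT3 by its brightest probe (0.33, SE 0.298), both of the stress response, did not pass. Another probe of DDIT3 did pass and rose by 0.62 (SE 0.131, limma adjusted p = 0.004882). The antioxidant protein TXN differed by 0.19 (SE 0.141) and did not pass, nor did SOD2, the only other tested gene of its list.

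Cortisol rises before birth and glucocorticoids are known to induce NFKBIA, so genes of that pathway were listed as well. Of 14 genes 3 were tested and none passed (0 in limma, and 0 where the unadjusted p is held to 0.05). These were the receptor and the enzymes given below, and the other listed genes had no named probe. A response to glucocorticoids, and its part in the fall of NFKBIA, was therefore not tested. The glucocorticoid receptor NR3C1 differed by -0.16 (SE 0.161, adjusted p = 0.4885). HSD11B1, which regenerates cortisol, differed by 0.18 (SE 0.277), and HSD11B2, which inactivates it, by 0.41 (SE 0.282).

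**Figure D4:**
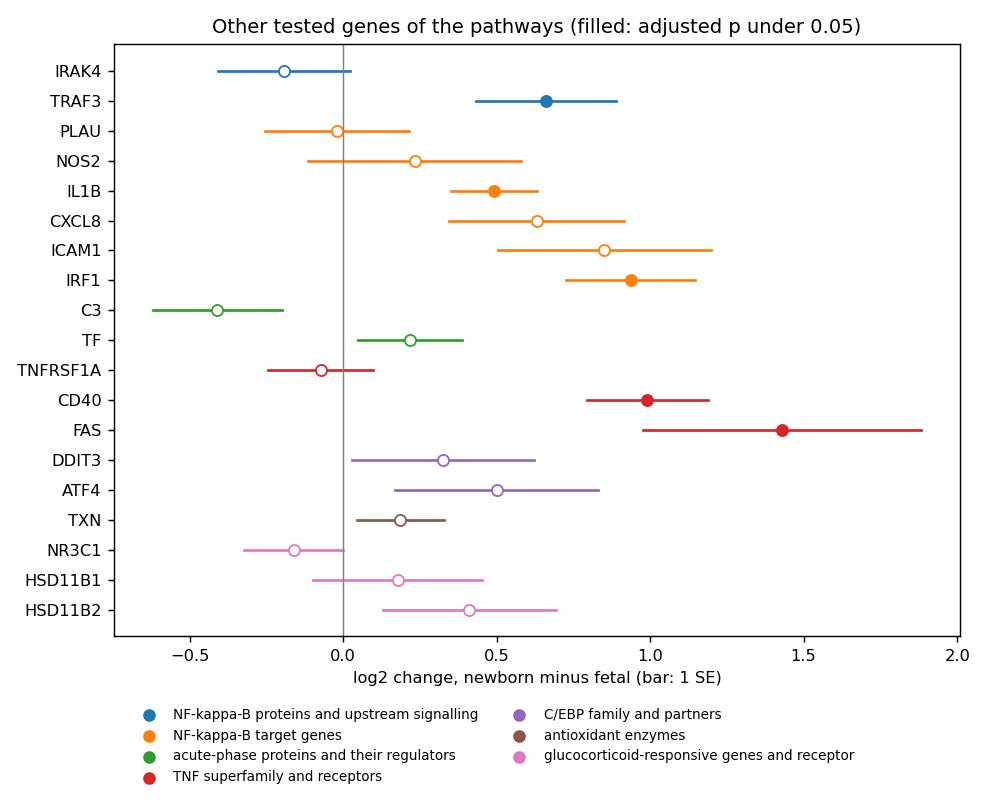
Newborn minus fetal log2 change of the other tested genes of the pathway lists, by the brightest probe of each gene, with bars of 1 SE; a gene on several lists is drawn once. Filled points passed at an adjusted p under 0.05, which were TRAF3, IL1B, IRF1, CD40 and FAS, all higher in the newborn group.

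Interferon-induced genes were listed beside these. ISG15, a ubiquitin-like protein, rose by 2.83 (SE 0.617, limma adjusted p = 0.00586), with 7 of 7 lambs above every fetus. Such a lack of overlap, in either direction, held for 6.89% of all tested probes. CXCL10, a chemokine for T cells, rose by 2.14 (SE 0.609, limma adjusted p = 0.02189). It was well above background on 4 of 6 fetal and 7 of 7 newborn arrays. IRF1, described above with the NF-kappa-B targets, is on this list too.

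Markers of other cell types also differed between the groups. Among the 650 named genes tested, 13.4% passed as higher and 9.69% as lower in the newborn group. Of the macrophage and monocyte markers 3 of 4 tested rose and LYZ did not pass, and their summed level, in multiples of the array's 75th percentile, was 0.736 to 1.10 in the fetuses and 1.07 to 2.35 in the lambs. FCGR1A, an Fc receptor, rose by 2.07 (SE 0.304, limma adjusted p = 0.0007743), and was well above background on 2 of 6 fetal and 7 of 7 newborn arrays. FCER1G rose by 0.76 (SE 0.180, limma adjusted p = 0.009207) and CD14, the lipopolysaccharide co-receptor, by 0.66 (SE 0.176, limma adjusted p = 0.0164). Their part in the rises of TNF, IL18 probes 2 and 3 and SAA3 was not tested.

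Of 7 listed T-cell markers 3 had a named probe, and the 2 that were tested, both CD3 chains, went down. CD4 was too dim to be tested. Among all named genes tested, 9.69% passed as lower. CD3E fell by 2.07 (SE 0.373, limma adjusted p = 0.002275) and CD3D fell by 1.63 (SE 0.281, limma adjusted p = 0.001838), each with 7 of 7 lambs below every fetus. Among all tested probes 6.89% had no overlap in either direction. The summed level of CD3E and CD3D was 0.207 to 0.591 in the fetuses and 0.0422 to 0.157 in the lambs, with CD3D well above background on 2 of 7 newborn arrays. The erythroid genes HBB and AHSP both fell, with a summed level of 53.7 to 258 in the fetuses and 25.4 to 68.6 in the lambs, and AHSP lost its call in 15 of 24 other settings.

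Of the endothelial markers 3 of 4 tested fell, FLT1 by 0.82, PECAM1 by 0.51 and KDR by 0.46, and TIE1 did not pass. Their summed level was 5.89 to 7.41 in the fetuses and 4.02 to 6.61 in the lambs. Among all named genes tested, 9.69% passed as lower. The fibroblast gene COL3A1 fell by 0.37 (SE 0.125, limma adjusted p = 0.04694) and lost its call in 19 of 26 other settings, and COL1A2 and DCN did not pass. The smooth muscle gene CNN1, the only 1 of 4 listed with a named probe, rose by 1.83 (SE 0.415, limma adjusted p = 0.007288). The adipocyte genes LEP and PLIN1 did not pass. Neutrophil and B-cell markers had no named probe on the array, and the part of any of these cells in the members' changes was not tested.

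For each member with a call, the named genes most like it over the 13 arrays were taken as the highest Pearson correlations among 644 genes, after the group means were subtracted. They are a description with no test, since each is the highest of many. For NFKBIA they were ASF1A (r = 0.786) and THRB (r = 0.718). For TNF they were ACTG1 (r = 0.786) and CDK4 (r = 0.780), for SAA3 LOC443144 (r = 0.767) and PAG11 (r = 0.699), and for CEBPB MYLK (r = 0.739) and RCAN1 (r = 0.726). For IL18, whose brightest probe is probe 1, they were TRPM7 (r = 0.898) and COL1A2 (r = 0.807). Of these 10 genes only ACTG1 passed for age, with a log2 change of 0.54 (limma adjusted p = 0.00962).

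**Figure D5:**
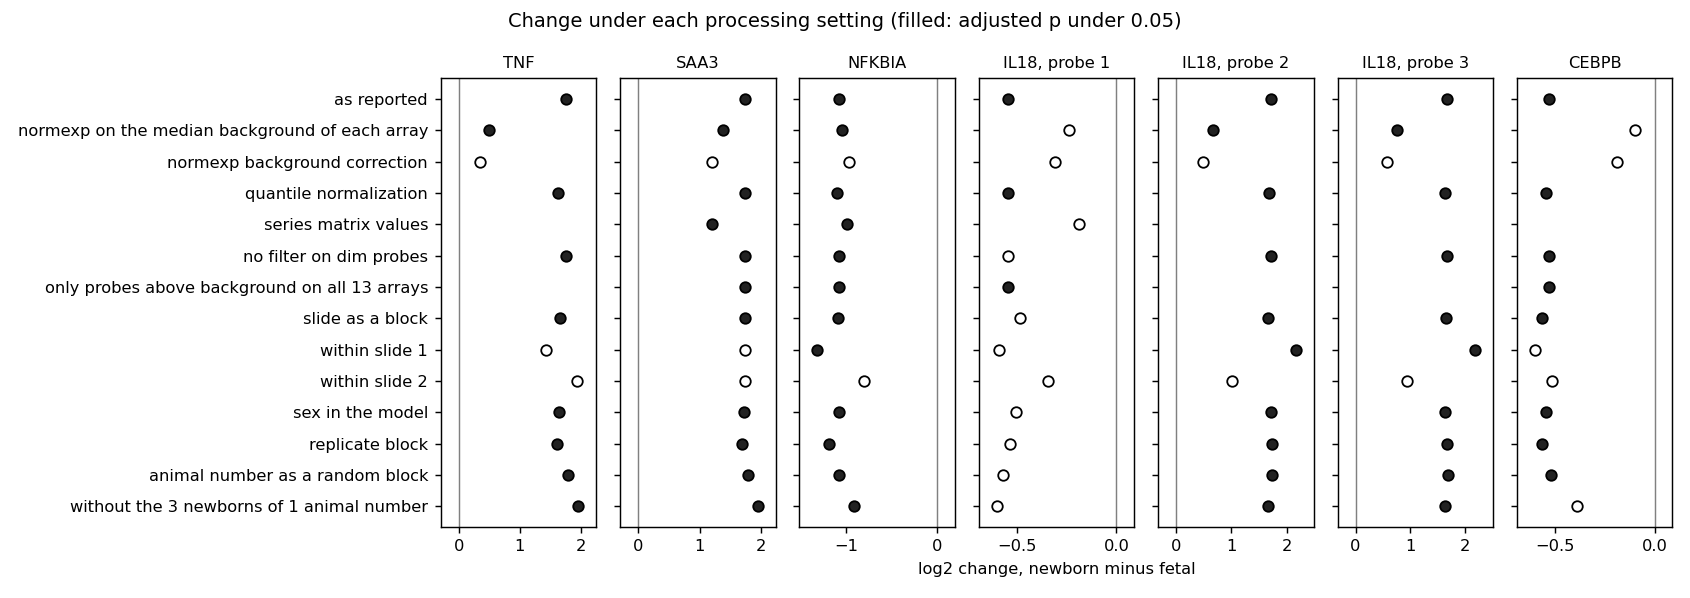
Newborn minus fetal log2 change of the 7 probes that passed, under the reported setting and 13 other settings, with filled points where the adjusted p was under 0.05; no point is drawn where a setting does not hold the probe. Every point keeps its side of 0, and the 2 normexp settings lie nearest to 0 for TNF, IL18 probes 2 and 3 and CEBPB. Both of these settings add 50 intensity units to every signal, which shrinks the changes of dim probes.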

How the data were processed

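Per the file headers, the authors deposited spot intensity values of Agilent's Feature Extraction software. That software subtracted the background and detrended each array to give the processed signal, and the protocol labels it Cy3 while the label field says Cy5. The authors' deposited series matrix of 7041 probes was read as log2 values, judged from the values (column medians 8.69 to 8.70, r of 0.986 to 0.992 with its own array), with its normalization not given in the sources used here, and served as an alternative.

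Control spots and spots marked as outliers were left out, the 75th percentile of each array over its other spots was subtracted from log2 values, and spots of a probe were averaged. Probes well above background on at least 6 arrays were tested, 10255 of 15008. Names came from the files and the RefSeq gene list, by which 1647 probes had a single gene. SAA3 was named by its description and SOD2 by its gene ID. TNF, IL18 probes 2 and 3, FCGR1A, TRAF3, IL1B, CD40, FAS and CXCL10 were well above background on fewer than 6 fetal arrays. They could therefore pass this filter through the newborn arrays where they are high. CD3D and AHSP were well above background on 2 of 7 newborn arrays each, so they could pass it mainly through the fetal arrays.

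Tests were two-sided and ran in R 4.3.3 with limma 3.58.1 (lmFit, then eBayes) and version 1.17.8 of data.table. Figures were drawn with matplotlib 3.10.9, numpy 2.4.6 and pandas 2.3.3 under Python 3.11.15. On simulated data with 10255 probes for newborn against fetal, limma recovered 58% of 50 probes changed 1.5-fold, 84% at 2-fold, 96% at 3-fold and 100% at 4-fold, with 5 false calls. The simulation drew independent normal values and changed far fewer probes than the 2366 called in the data. It held no slides or shared animal numbers, so its rates need not hold for these arrays. The alternatives were normexp (offset 50), quantile normalization, the series matrix, other filters, slide, sex, replicate and animal number, each slide alone and each array left out. The normexp with the median background was chosen after seeing the data.

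The members, lists and rules were chosen with earlier results of these data known. All probes of the members are named, the 3 genes of each other list with the smallest p, and the 2 genes most like each member with a call. Other listed genes are given as members of their list's count. The count of the interferon list is not reported here. No sequence coordinates on the genome are given, since the files name no build.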

Additional observations from a re-analysis of the deposited data

Results flagged for a closer look

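Among the 18 groups of values formed by 9 probes and 2 ages, 1 held an array far from the others. On SOD2 probe 1 newborn 6 was lowest, at a log2 value of 1.972, and the next lamb was at 2.929. The gap was 0.612 of the group's range, above Dixon's limit for 7 arrays, which chance passes in about 1 group in 20. Newborn 6 was also the lowest lamb on SOD2 probe 2, at 2.58, and on IL18 probe 3. The SOD2 probes differed on it, with probe 1 minus probe 2 at -0.611 against 0.178 to 0.487 on the other 12 arrays. Without it, the change of SOD2 probe 1 was -0.09 and that of probe 2 was 0.03.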

How the results depend on the processing

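Across 26 other settings the 7 called member probes kept their direction wherever they had a value. TNF lost its call in 3 of 24 settings, SAA3 in 3 of 26, NFKBIA in 2 of 26, IL18 probes 2 and 3 in 2 of 24 each, CEBPB in 5 of 25 and IL18 probe 1 in 19 of 26. The member probes called were 7 as reported and 0 with normexp spot by spot (2366 and 48 of all probes). They were 3 and 0 within slides 1 and 2 (356 and 23 of all probes), which hold 7 and 6 arrays. They were 2 of the 5 in the series matrix and 4 of the 6 that were above background on all 13 arrays. With 1 array left out 6 to 7 member probes were called, and 1727 to 3116 of all probes, the most without newborn 6. Without the 3 lambs of 1 animal number 5 member probes and 749 of all probes were called. With animal number as a random block (consensus correlation 0.178) 6 member probes, without IL18 probe 1, and 1717 of all probes were called. Replicate numbers name different animals, and deviations of same-numbered arrays had correlations of -0.0708 to 0.0539, so they do not pair the arrays; with a replicate block 6 member probes and 1326 of all probes were called. For the slide itself limma called 0 probes, and 533 were below 0.05 unadjusted. The cause was not tested where a setting held all arrays and probes. Each list had 0 genes called in at least 1 setting.

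Some changes that did not pass turned sign. SOD2 probe 2 was 0.039 within slide 1 and 0.023, 0.0061, 0.0058 and 0.029 without fetal 4 and newborn 3, 5 and 6, in a range of -0.114 to 0.029 with 1 array left out. Within slide 1, IRAK4 was 0.025, LEP -0.129 and PLIN1 -0.0056. Within slide 2, DDIT3 by its brightest probe was -0.197 and COL1A2 0.021. With normexp LEP was -0.028, and with the median background IRAK4 was 0.012 and TNFRSF1A 0.035. With 1 array left out TNFRSF1A ranged from -0.162 to 0.019 (without fetal 6), COL1A2 from -0.178 to 0.0096 (without newborn 3) and HSD11B1 from -0.0012 (without fetal 4) to 0.331, and TXN was -0.00095 without the 3 lambs. Of the 1080 values for single probes or genes under the settings, 897 kept their direction and side of the threshold, 162 lost the call, 4 gained it and 17 turned sign. Signal near background limits TNF, IL1B and FAS, among others.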
